A study of Mus musculus with 20 samples.

Results

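Cathepsins, lysozyme 2 (Lyz2) and the hydrolases, transporters and membrane proteins of the lysosome were followed in repopulated macrophages of the cranial dura mater. The set was chosen by name, as the rows of the count table whose symbol is on a list of 42 lysosomal genes. All 42 were present among the 33243 genes of the table, all 42 were among the 16632 genes tested (total count of at least 10 over the libraries), and 0 were at 3 counts or fewer in every library. By role the list holds 9 cysteine cathepsins, 4 other lysosomal proteases, 1 lysozyme, 12 glycan-degrading hydrolases, 7 lipid-handling proteins, 7 membrane proteins and 2 regulators.

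RNA was sequenced from dural CNS-associated macrophages (dCAMs) of Ccr2creERT2/+ R26tdT/tdT mice, in which tamoxifen switches on the red fluorescent protein tdTomato (tdT) in whichever cells transcribe Ccr2 on those days, mainly monocytes, and in their later progeny. Every mouse, controls included, had received the CSF1R inhibitor BLZ945 by gavage at 200 mg per kg on 7 days to deplete macrophages, starting at 10 ± 3 weeks of age, and tamoxifen at 2 mg per day on the last day of gavage and again 2 and 4 days later. After 8 weeks, bacterial lipopolysaccharide (LPS, 2.5 mg per kg) was injected into 5 mice and PBS into the other 5 (CTL), and the dura was taken 12 h later. From each mouse tdT+ and tdT- dCAMs (CD45int CD11b+ CD206int-high) were sorted into a library each, which gives 4 groups of 5. Values of a group are listed by mouse number, 174, 175, 177, 178 and 179 for CTL and 54, 56, 59, 60 and 61 for LPS. The tdT label marks descent from Ccr2-expressing cells at the days of tamoxifen only, so a tdT- cell may also stem from a precursor that was not recombined, and no group without BLZ945 or tamoxifen was part of these 20 libraries.

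Lysosomes break down what a macrophage takes up. Cysteine cathepsins such as cathepsins B, L and S cleave proteins at acid pH and shape antigens for MHC class II, lysozyme splits bacterial cell walls, and glycosidases and lipases take sugars and lipids apart. Lamp1 and Lamp2 line the membrane of the organelle, and transcription factors of the MiT/TFE family, among them TFEB, bind letters around CACGTG in front of many lysosomal genes.

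Promoter letters are shown because the members share a role that the choice by name did not take from sequence. RefSeq windows (GRCm38.p6, 250 bases before to 50 after a start) were found for 37 of the 42 members and 27025 genes in all. The letters TCACGTGA, which contain CACGTG and read the same on both strands, occurred in the windows of 4 members (Ctsa, Ctsd, Gla and Mcoln1), 10.8% of those with a window, against 1.12% of all genes. The letters CACGTG, also the same on both strands, occurred in 11 members (29.7%, against 8.09% of all genes), the other 7 being Ctsf, Ctsl, Lgmn, Gaa, Glb1, Naglu and Lamp1. The stretches below come before the start and hold no annotated exon. Lamp1 (chr8:13158911-13159160, plus strand), with 4 copies of CACGTG in capitals, is set beside members whose windows have no such match. Ctsz (chr2:174439040-174439289, minus strand) had the smallest p among such members that rose after LPS. Lyz2 (chr10:117282322-117282522, minus strand) and Ctsc (chr7:88277835-88278084, plus strand) had the smallest p among those that fell. Of the other members that LPS changed in both labels (below), Ctsl and Ctsf hold CACGTG. Hexa, Man2b1 and Lipa do not, and Ctsh has no window.
Lamp1: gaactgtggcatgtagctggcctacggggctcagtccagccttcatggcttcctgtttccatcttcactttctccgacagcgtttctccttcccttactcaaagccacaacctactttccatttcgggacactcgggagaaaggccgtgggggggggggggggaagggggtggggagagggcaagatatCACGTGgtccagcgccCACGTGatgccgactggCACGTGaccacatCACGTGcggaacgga
Ctsz: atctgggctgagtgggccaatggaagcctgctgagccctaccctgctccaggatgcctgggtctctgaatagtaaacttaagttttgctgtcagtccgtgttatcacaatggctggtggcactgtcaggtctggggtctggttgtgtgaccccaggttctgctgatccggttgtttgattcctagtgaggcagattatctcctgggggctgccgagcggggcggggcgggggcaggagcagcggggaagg
Lyz2: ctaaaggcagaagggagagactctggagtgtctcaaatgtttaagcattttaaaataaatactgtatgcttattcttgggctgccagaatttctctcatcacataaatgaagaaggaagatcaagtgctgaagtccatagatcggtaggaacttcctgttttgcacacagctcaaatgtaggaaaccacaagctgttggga
Ctsc: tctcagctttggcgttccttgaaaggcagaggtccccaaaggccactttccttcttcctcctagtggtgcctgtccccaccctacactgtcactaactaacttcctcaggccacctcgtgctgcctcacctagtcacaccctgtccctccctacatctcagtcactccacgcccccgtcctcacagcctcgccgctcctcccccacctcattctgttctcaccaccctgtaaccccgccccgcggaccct
A match here is a description of letters in a window, and a missing match says only that these letters are not in it.

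Library totals were 6017650 to 18925908 counts, with 6017650 to 12208203 in the CTL groups and 12073566 to 18925908 in the LPS groups. The tdT- CTL libraries stood apart. Over 5823 genes with a mean log2 CPM (counts scaled to library size) of at least 4, each of them correlated with the others of its group at a mean r of 0.361 to 0.432, against 0.794 to 0.854 for tdT+ CTL and 0.927 to 0.956 for the LPS libraries. Of the gene and library pairs among these genes, 8.37% were at 3 counts or fewer in tdT- CTL, against at most 0.398% in any other group. The median coefficient of variation of the 42 members was 44.4% in tdT- CTL and 16.8% to 17.2% in the other 3 groups. Of the pairs of a member and a library, 14 of 210 were at this floor for tdT- CTL and at most 2 in any other group, and the 14 belong to Ctsk, Ctso, Galns, Idua, Naglu, Manba and Smpd1. All 8 border macrophage markers, Mrc1 (CD206) among them, were detected in every group, with a summed level of 14373 to 37345 CPM in CTL and 7357 to 12491 CPM in LPS libraries. The 10 neutrophil markers summed to 68.7 to 196 CPM in CTL and 434 to 1091 CPM in LPS libraries. Mean S100a8 went from 8.07 to 291 CPM in tdT- and from 2.09 to 309 CPM in tdT+ dCAMs. Mean Mmp8 went from 0.0491 to 98.0 and from 0.0802 to 103 CPM, and mean Csf3r rose in both labels. The means of S100a9, Ngp and Ltf fell in both labels, and Retnlg and Camp differed in direction. Ly6g and Cxcr2 were at the floor (3 counts or fewer) in all CTL and tdT+ LPS libraries. The 6 dendritic cell markers summed to 618 to 3329 CPM in tdT- CTL, led by Cd209a at 315 to 2774 CPM, against 51.2 to 77.1 CPM for tdT+ cells of the same mice, and after LPS to 262 to 638 CPM (tdT-) and 11.4 to 52.6 CPM (tdT+), while Xcr1 and Clec9a were at the floor in all 5 tdT- CTL libraries. Fibroblast markers ran from 10.9 to 3993 CPM in tdT- CTL and reached at most 336 CPM in any library of another group. The part of these cells in the results that follow was not tested.

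The question of the LPS comparison was how dCAMs of either label respond to systemic endotoxin. More members fell than rose, and the members of smallest p were Lyz2, Ctsc and Hexa, which fell, while Ctsl and Ctsz rose. A gene was called where edgeR's quasi-likelihood test gave an adjusted p (Benjamini-Hochberg) below 0.05 and the log2 fold change exceeded 1 in size. In tdT- dCAMs 7 of 42 members were called lower (16.7%, against 4.27% of all genes tested) and 3 higher (7.14%, against 7.20%), so that the share of higher calls was near that of all genes. In tdT+ dCAMs 10 members were called lower (23.8%, against 2.52%) and 2 higher (4.76%, against 3.37%). With the adjusted p alone, 12 fell and 6 rose in tdT- dCAMs (4.85% and 7.67% of all genes), and 13 fell and 4 rose in tdT+ dCAMs (2.83% and 3.79%). The median log2 fold change of the members was -0.11 in tdT- and -0.58 in tdT+ dCAMs, beside 0.02 and 0.01 over all genes tested. Without any overlap between the LPS and CTL libraries, 9 members were lower and 5 higher in tdT- dCAMs (3.31% and 9.32% of all genes), and 17 lower and 5 higher in tdT+ dCAMs (7.19% and 10.6%). Called in both labels were 9 members, Ctsc, Ctsf, Ctsh, Ctsl, Ctsz, Lyz2, Hexa, Man2b1 and Lipa, each in the same direction, of which Lipa in tdT- dCAMs was lost under 14 of 24 alternatives. Galns was called in tdT- only, Ctsd, Psap and Laptm5 in tdT+ only, and 22 members did not reach an adjusted p of 0.05 in either label. In bulk libraries fewer cells of a type and less RNA per cell cannot be told apart.

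**Figure D1:**
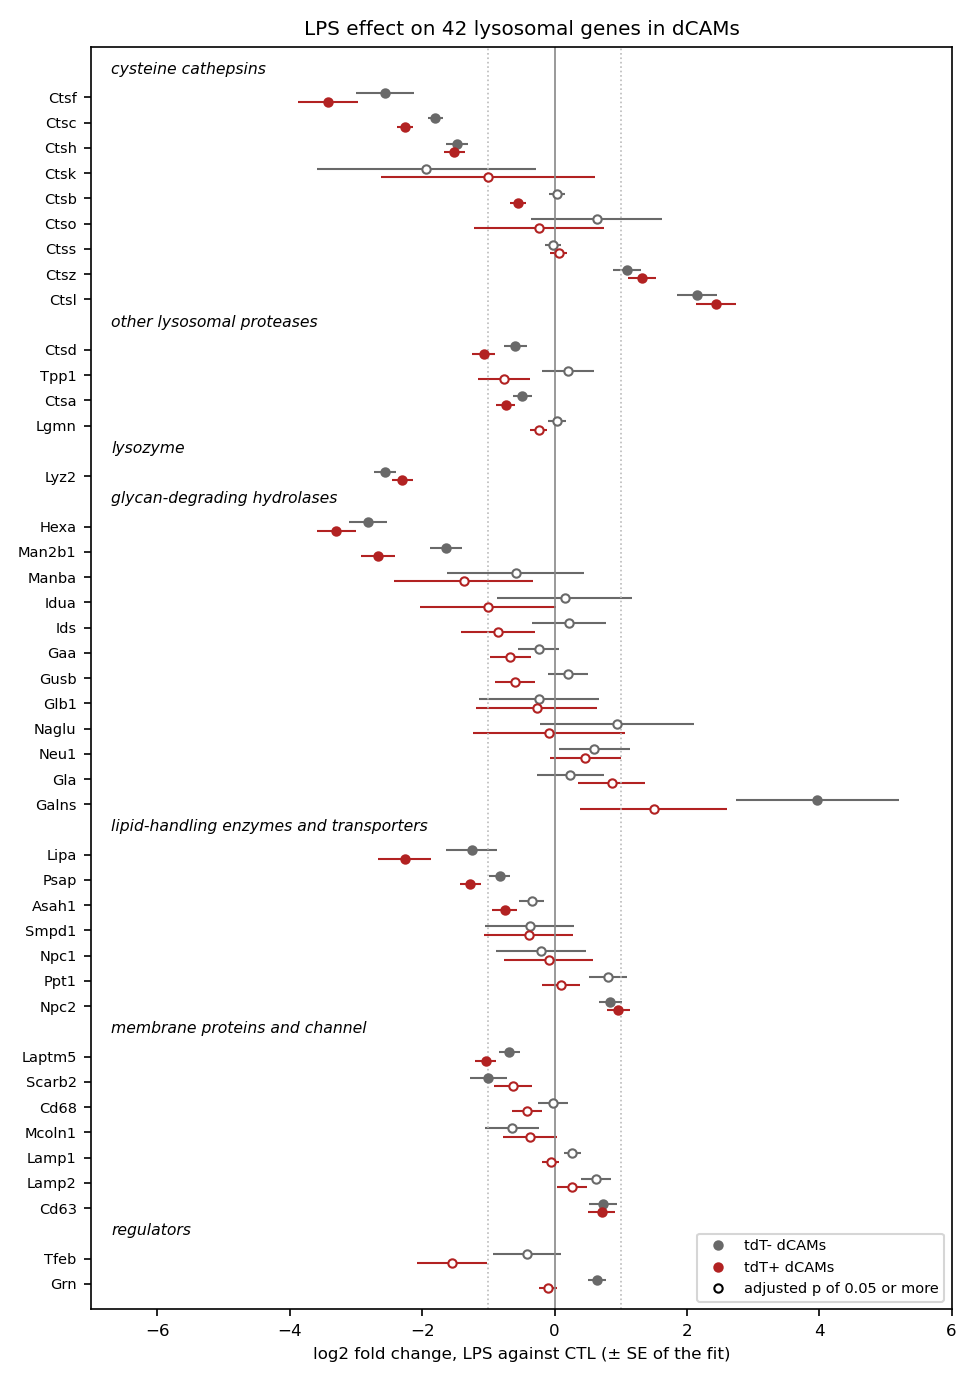
Log2 fold change of LPS against CTL (x axis, with the SE of the fit) for the 42 lysosomal members, grouped by role and shown for tdT- dCAMs (grey) and tdT+ dCAMs (red), with open points for an adjusted p of 0.05 or more and dotted lines at a log2 fold change of 1 in either direction. Lyz2, Ctsc, Hexa and Man2b1 lie left of the dotted line in both labels, Ctsl and Ctsz lie right of it in both, and Ctsk, Galns and Naglu have the widest errors.

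Lyz2, the lysozyme of myeloid cells (chr10:117277331-117282321 on GRCm38), was the most abundant member per kb of exon in both CTL groups and had the lowest or next to lowest p of all members. In tdT- dCAMs Lyz2 stood at 9447, 9644, 15612, 12253 and 14493 CPM in CTL mice and at 1509, 2029, 2614, 2347 and 1907 CPM in LPS mice. In tdT+ dCAMs it stood at 12027, 10887, 12870.5, 12162 and 11598 CPM in CTL and at 2104, 2164, 3148, 2468 and 2226 CPM in LPS mice. Every LPS library was thus below every CTL library of its label. The log2 fold change was -2.56 ± 0.16 (SE) in tdT- (edgeR adjusted p = 1.4e-09) and -2.30 ± 0.16 in tdT+ dCAMs (adjusted p = 4.7e-09). In CTL libraries Lyz2 held 27.7% of the members' summed CPM in tdT- and 22.2% in tdT+ dCAMs, and in LPS libraries 6.40% and 7.12%. Per kb of exon it stayed second among the members after LPS, at 1581 and 1840 CPM per kb, behind Ctss at 2869 and 2755. Lyz2 shares much of its sequence with Lyz1, and reads could be split between them. Lyz1 was at 1.51 to 48.0 CPM over all libraries and fell in tdT+ dCAMs (log2 fold change -2.68 ± 0.70, adjusted p = 0.020).

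The cysteine cathepsins went in opposite directions. In either label 3 of the 9 were called lower (Ctsc, Ctsf and Ctsh), 2 were called higher (Ctsl and Ctsz) and the median log2 fold change was -0.02 in tdT- and -0.56 in tdT+ dCAMs. Cathepsin C (Ctsc, chr7:88278085-88310888), an aminodipeptidase that activates the serine proteases of granulocytes and mast cells, stood in tdT- dCAMs at 2856, 3239, 3331, 2782 and 2873 CPM in CTL and at 948, 733, 978, 892 and 783 CPM in LPS mice. In tdT+ dCAMs Ctsc stood at 3749.7, 4169, 4149, 4075 and 4099 CPM in CTL and at 777, 719.7, 886, 1057 and 783 CPM in LPS mice. All LPS libraries lay far below all CTL libraries, and Ctsc had the smallest SE of all members. Its log2 fold change was -1.80 ± 0.11 in tdT- (adjusted p = 1.6e-09) and -2.26 ± 0.12 in tdT+ dCAMs (adjusted p = 5.2e-11). Ctsh, an aminopeptidase, fell from a mean of 1441 ± 197 (SD, n = 5) to 519 ± 109 CPM in tdT- and from 1200.5 ± 93.0 to 420.5 ± 80.9 CPM in tdT+ dCAMs, a log2 fold change of -1.47 and -1.51. Ctsf was far less abundant, at 34.0 to 145.8 CPM in tdT- and 106 to 235 CPM in tdT+ CTL libraries, and fell to 5.53 to 18.2 and 10.02 to 15.8 CPM (log2 fold change -2.56 ± 0.44 and -3.42 ± 0.45).

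Cathepsin L (Ctsl, chr13:64359337-64370890), an endopeptidase, and cathepsin Z (Ctsz, chr2:174427493-174439039), a carboxypeptidase, rose in both labels. Ctsl in tdT- dCAMs stood at 84.4, 418, 482, 467 and 344 CPM in CTL and at 1175, 2049, 1703, 1454 and 1611 CPM in LPS mice. In tdT+ dCAMs Ctsl stood at 387, 379, 471, 404 and 433 CPM in CTL and at 2149.6, 2254, 2412, 1722 and 2696 CPM in LPS mice. The tdT- CTL library of mouse 174 was the lowest of all, and no LPS library reached down to the CTL range. The log2 fold change was 2.15 ± 0.30 in tdT- (adjusted p = 4.3e-05) and 2.44 ± 0.30 in tdT+ dCAMs (adjusted p = 1.1e-05). Among the 42 members ordered by CPM per kb, Ctsl went from rank 22 to 13 in tdT- and from rank 24 to 10 in tdT+ dCAMs. Ctsz in tdT- dCAMs stood at 669, 617, 1221, 1072 and 1626 CPM in CTL and at 1878, 2197, 2322, 2459 and 2291 CPM in LPS mice. In tdT+ dCAMs Ctsz stood at 1163, 699, 809, 829 and 632 CPM in CTL and at 2103, 1876, 2043, 2313 and 1959.6 CPM in LPS mice. The labels' LPS libraries again lay above all CTL libraries, although the tdT- CTL library of mouse 179 came near them. Its log2 fold change was 1.10 ± 0.21 (adjusted p = 0.0013) and 1.32 ± 0.21 (adjusted p = 0.00026). Without mouse 174 the value of Ctsz in tdT- dCAMs was 0.95, under the fold threshold.

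The remaining 4 cysteine cathepsins were not called. Cathepsin B (Ctsb, chr14:63122462-63145923), an endo- and exopeptidase and after Lyz2 the most abundant member by CPM in CTL dCAMs, stood in tdT- dCAMs at 4295, 7242, 6652, 4885 and 5529.8 CPM in CTL and at 5142, 5962, 6434, 6456 and 5402 CPM in LPS mice. In tdT+ dCAMs Ctsb stood at 10366, 10493, 7781, 9254 and 9060.01 CPM in CTL and at 6473, 5917, 6702, 6596 and 6252 CPM in LPS mice. The groups overlapped in tdT- dCAMs, where the log2 fold change was 0.04 (95% interval -0.21 to 0.29), and did not overlap in tdT+ dCAMs, where it was -0.56 ± 0.12 (adjusted p = 0.0044). Cathepsin S (Ctss), which trims the invariant chain of MHC class II, was not called, with a log2 fold change of -0.02 (-0.28 to 0.24) in tdT- and 0.06 (-0.20 to 0.32) in tdT+ dCAMs and a range of 3041 to 4663 CPM over all 20 libraries. Ctso was at 0 counts in the tdT- CTL libraries of mice 174 and 179 and at most 206 CPM in the other 3, against 96.2 to 124.8 CPM in tdT- LPS (adjusted p = 0.72). Ctsk, the collagen-cleaving cathepsin of osteoclasts, ranged from 0 to 72.4 CPM and had the largest SE of all members in both labels (1.66 and 1.62).

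**Figure D2:**
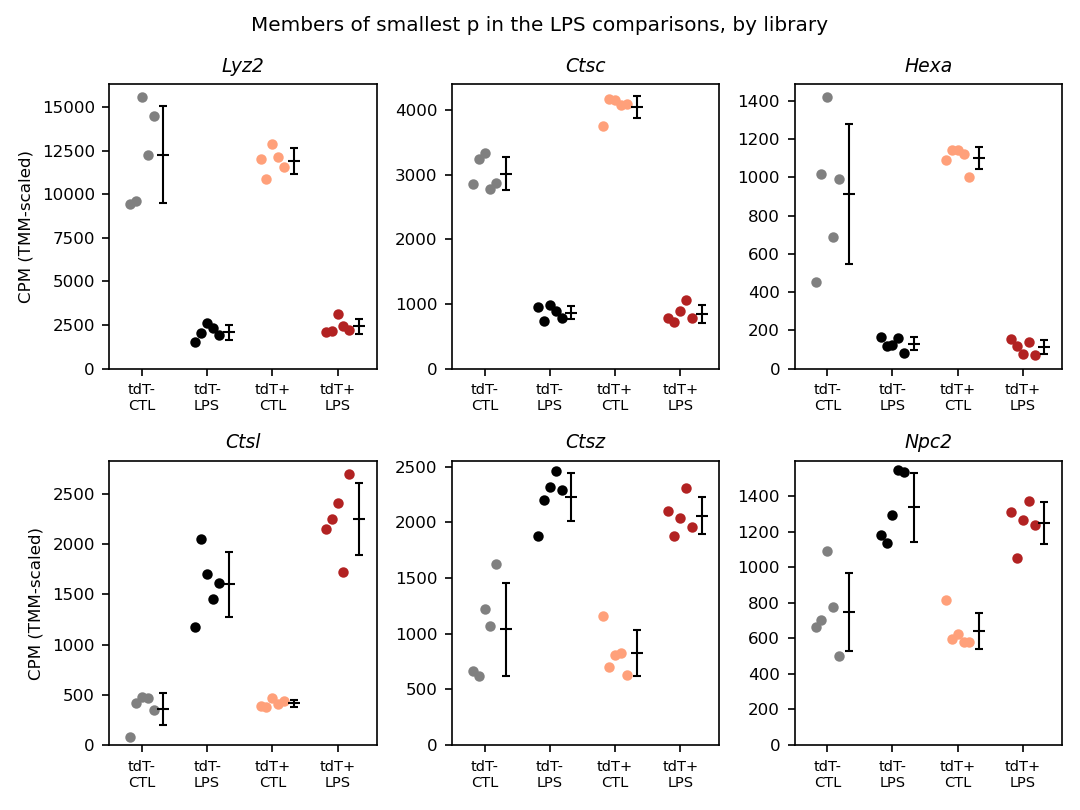
CPM (y axis, linear, from 0) of the 3 members of smallest p in each direction of the LPS comparisons, with a point for each library in the groups tdT- CTL, tdT- LPS, tdT+ CTL and tdT+ LPS and the mean with SD at the side (n = 5). Lyz2, Ctsc and Hexa are lower in every LPS library than in every CTL library of the same label, and Ctsl, Ctsz and Npc2 are higher.

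Among the other proteases, cathepsins A and D fell moderately while Lgmn and Tpp1 did not reach the threshold. Cathepsin D (Ctsd), the aspartic protease of lysosomes, changed from 915 ± 196 to 606 ± 114 CPM in tdT- (log2 fold change -0.60 ± 0.18, adjusted p = 0.029) and from 1123 ± 113 to 535 ± 111 CPM in tdT+ dCAMs (-1.07 ± 0.18, adjusted p = 0.00032). Without mouse 61 the latter was -0.99, under the fold threshold. Cathepsin A (Ctsa), the carboxypeptidase that protects the sialidase Neu1 and beta-galactosidase, fell with log2 fold changes of -0.49 and -0.74 (adjusted p = 0.031 and 0.0020). Legumain (Lgmn, chr12:102394084-102439813), which cuts after asparagine and activates other cathepsins, stood in tdT- dCAMs at 999, 1339.5, 977, 1416 and 963 CPM in CTL and at 1112, 1221, 1081, 1350.3 and 1081 CPM in LPS mice. In tdT+ dCAMs Lgmn stood at 1702, 1574, 1229, 1533 and 1385 CPM in CTL and at 1252, 1269, 1188, 1394 and 1189.6 CPM in LPS mice. The ranges overlapped in both labels, with 95% intervals of the log2 fold change of -0.24 to 0.31 and -0.51 to 0.04. Tpp1, a tripeptidyl peptidase, had values of 0.20 ± 0.39 and -0.77 ± 0.39 (adjusted p = 0.78 and 0.30).

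The glycan-degrading hydrolases were the largest group by number. Called lower in both labels were Hexa, the alpha subunit of beta-hexosaminidase, which clears gangliosides, and Man2b1, the lysosomal alpha-mannosidase. Hexa (chr9:59539540-59565109) in tdT- dCAMs stood at 451, 1019, 1419, 687 and 993 CPM in CTL and at 167, 117, 124, 159 and 80.6 CPM in LPS mice. In tdT+ dCAMs Hexa stood at 1091, 1143, 1143, 1123 and 1002 CPM in CTL and at 156, 118, 77.2, 138 and 71.1 CPM in LPS mice. The LPS libraries were far below the CTL libraries in both labels, and the tdT+ CTL libraries were the more uniform. The log2 fold change was -2.82 ± 0.29 (adjusted p = 9.1e-07) and -3.30 ± 0.29 (adjusted p = 1.2e-07). Man2b1 changed from 480.3 ± 67.2 to 154 ± 59.7 CPM in tdT- and from 879 ± 119 to 138 ± 31.4 CPM in tdT+ dCAMs, a log2 fold change of -1.64 ± 0.24 and -2.67 ± 0.25. Galns, a sulfatase acting on keratan sulfate, was at 0 counts in 3 tdT- CTL libraries, at 13.1 CPM in that of mouse 179 and at 38.6 to 50.4 CPM in all tdT- LPS libraries (log2 fold change 3.97 ± 1.23, adjusted p = 0.037, 0.19 at most over the alternatives).

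The other 9 glycosidases and sulfatases (Gaa, Gla, Glb1, Gusb, Idua, Ids, Naglu, Manba and Neu1) did not reach an adjusted p of 0.05 in either label. Gusb, the beta-glucuronidase and the most abundant of them, stood in tdT- dCAMs at 269, 209, 407, 229 and 86.4 CPM in CTL and at 306, 308, 237, 334 and 196 CPM in LPS mice. In tdT+ dCAMs Gusb stood at 583, 396, 312, 379 and 397 CPM in CTL and at 357, 280.4, 237, 314 and 180.2 CPM in LPS mice. Both comparisons overlapped, with intervals of -0.42 to 0.83 in tdT- and -1.22 to 0.03 in tdT+ dCAMs. In the joint fit of all 20 libraries, Idua, Naglu and Manba had SEs of 1.02 to 1.16 on the log2 scale. Changes of several fold in either direction were not detectable in that fit. When the 10 libraries of tdT+ dCAMs were fitted alone, Idua (log2 fold change -1.01) and Manba (-1.38) were called lower after LPS.

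Of the 7 lipid-handling proteins, Lipa was called lower in both labels, Psap fell in both and Npc2 rose in both. Lipa, the acid lipase that releases cholesterol from lipoproteins, changed from 174 ± 103 to 73.1 ± 20.02 CPM in tdT- (log2 fold change -1.25 ± 0.39, adjusted p = 0.038, and 0.23 at most over the alternatives) and from 369.9 ± 88.2 to 76.9 ± 18.8 CPM in tdT+ dCAMs (-2.27 ± 0.40, adjusted p = 0.00070). Psap, the precursor of the saposins that help sphingolipid hydrolases, had values of -0.83 ± 0.16 and -1.27 ± 0.16 (adjusted p = 0.0010 and 1.0e-05). Npc2 (chr12:84754562-84773152), which hands cholesterol to Npc1 for export, stood in tdT- dCAMs at 666, 703, 1091, 779 and 499.7 CPM in CTL and at 1181, 1135, 1293, 1546 and 1535 CPM in LPS mice. In tdT+ dCAMs Npc2 stood at 816, 597, 626, 582 and 582 CPM in CTL and at 1309, 1053, 1266, 1371 and 1240.5 CPM in LPS mice. No LPS library overlapped with CTL in tdT+, and in tdT- the highest CTL library, of mouse 177, lay just below the lowest LPS library. The log2 fold change was 0.84 ± 0.17 (adjusted p = 0.0022) and 0.96 ± 0.17 (adjusted p = 0.00079), under the fold threshold in both. Npc1 stayed at -0.20 ± 0.68 and -0.09 ± 0.68, and Asah1, the acid ceramidase, fell in tdT+ dCAMs only as far as the threshold goes (-0.75 ± 0.19, adjusted p = 0.015, against -0.35 ± 0.19, adjusted p = 0.21, in tdT-). The difference for Asah1 between the labels had an adjusted p of 0.61. Smpd1, the acid sphingomyelinase, and Ppt1, a thioesterase, were not called (adjusted p = 0.070 to 0.96).

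Among the membrane proteins Laptm5, a transporter-like protein of immune cell lysosomes, fell by 0.68 on the log2 scale in tdT- (adjusted p = 0.0058) and by 1.04 in tdT+ dCAMs (adjusted p = 0.00013), while the tetraspanin Cd63 rose by 0.73 and 0.71 (adjusted p = 0.025 and 0.043), calls that were lost under 8 and 13 of 24 alternatives. Scarb2, a membrane protein of lysosomes, had a log2 fold change of -0.9997 ± 0.28 in tdT- (adjusted p = 0.023), just short of the fold threshold, and -0.63 ± 0.28 in tdT+ dCAMs (adjusted p = 0.22). Lamp1 (chr8:13159161-13175338), a main glycoprotein of the lysosomal membrane, stood in tdT- dCAMs at 885, 1379, 1487, 1233 and 1496 CPM in CTL and at 1461, 1592, 1649, 1685 and 1405 CPM in LPS mice. In tdT+ dCAMs Lamp1 stood at 1621, 1463, 1747, 1906 and 1579 CPM in CTL and at 1598, 1438, 1620.4, 1763 and 1587 CPM in LPS mice. The groups overlapped in both labels, and the intervals were -0.00096 to 0.53 and -0.32 to 0.21. Cd68, the scavenger protein of macrophage endosomes, had intervals of -0.50 to 0.45 and -0.89 to 0.06. Lamp2 and the calcium channel Mcoln1 did not reach the threshold in either label (adjusted p = 0.076 to 0.73).

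The 2 regulators differed. Progranulin (Grn, chr11:102430315-102437048), the precursor of granulins needed for lysosomal enzymes to work, stood in tdT- dCAMs at 1004, 1592, 1737, 1302 and 1185 CPM in CTL and at 1797, 2158, 2107, 2573 and 2038 CPM in LPS mice. In tdT+ dCAMs Grn stood at 2669.7, 2280.3, 2327, 2148 and 2290.2 CPM in CTL and at 1978, 1985, 2313, 2469 and 2182 CPM in LPS mice. In tdT- dCAMs all LPS libraries lay above all CTL libraries (log2 fold change 0.65 ± 0.14, adjusted p = 0.0026), and in tdT+ dCAMs they overlapped (-0.10, interval -0.38 to 0.18). Tfeb was at 4.84 to 67.6 CPM in CTL and 6.34 to 25.9 CPM in LPS libraries, with a log2 fold change of -0.42 ± 0.52 in tdT- and -1.55 ± 0.53 in tdT+ dCAMs (adjusted p = 0.63 and 0.095). In tdT+ dCAMs its LPS libraries (13.4 to 25.3 CPM) lay below all CTL libraries (42.3 to 67.6 CPM), as for 7.19% of all genes. There Tfeb was called lower with DESeq2 (-1.59), limma-voom with quality weights (-1.53) and the 10 libraries alone (-1.55), but not under every alternative.

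As a share of library counts, which is a description without a test, the 42 members together held 4.41% ± 0.46 (SD, n = 5) of tdT- CTL and 5.58% ± 0.13 of tdT+ CTL counts, and 3.24% ± 0.30 of tdT- LPS and 3.31% ± 0.24 of tdT+ LPS counts. The lysozyme share went from 1.22% to 0.207% in tdT- and from 1.24% to 0.235% in tdT+ dCAMs. The cysteine cathepsins held 1.57% and 1.51% in tdT- and 2.05% and 1.54% in tdT+ dCAMs. The glycan-degrading hydrolases held 0.214% and 0.117% in tdT- and 0.331% and 0.116% in tdT+ dCAMs. In every role the mean shares of both labels after LPS differed by less than their SDs. These SDs are between mice and do not measure the difference within a mouse. The lysozyme share was higher in the tdT+ library of every LPS mouse. In the other roles the sign differed between mice.

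**Figure D3:**
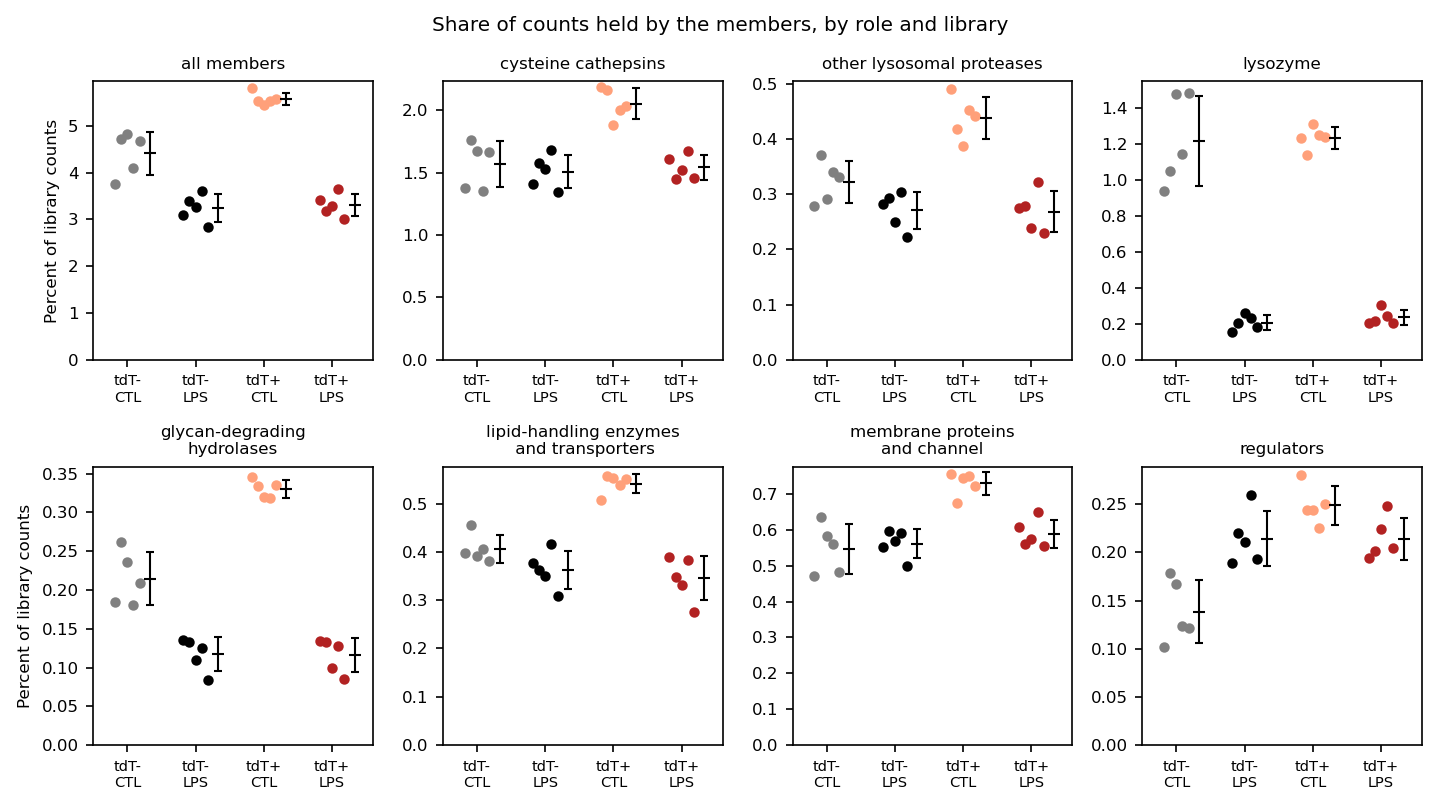
Percent of library counts (y axis, from 0) held by all 42 members and by each role, with a point for each library of the 4 groups and the mean with SD at the side (n = 5). The lysozyme share drops to 0.157% to 0.302% in the LPS libraries, and the tdT+ CTL libraries hold the highest share of all members, 5.44% to 5.80%.

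The comparison of the labels within CTL mice asks whether dCAMs of monocytic descent differ in the resting dura. No member was called in either direction, beside 3.01% of all genes called higher and 1.27% lower in tdT+ dCAMs. At an unadjusted p under 0.05 edgeR gave 18 of 42 members, all higher in tdT+ dCAMs, beside 3914 of the 16632 genes tested in either direction. With the adjusted p alone 4 members (9.52%, against 3.10% of all genes) were higher in tdT+ dCAMs, and in these 4 the labels did not overlap (2.36% of all genes). Ctsb was higher by 0.72 ± 0.12 on the log2 scale (adjusted p = 0.0011), Grn by 0.78 ± 0.14 (adjusted p = 0.0015), Ctsc by 0.42 ± 0.11 (adjusted p = 0.031) and Man2b1 by 0.87 ± 0.24 (adjusted p = 0.039), each in 5 of 5 mice. Man2b1 stood in CTL mice at 490.4, 518, 449, 559.6 and 384 CPM in tdT- and at 1084, 877, 818, 793 and 823 CPM in tdT+ dCAMs. The per-library values of the other 3 are given above. Over the whole list 15 members were higher in the tdT+ library of all 5 CTL mice and 0 were lower in all 5, beside 5.85% and 3.61% of all genes tested, and the median log2 difference of the members was 0.37, against -0.01 over all genes.

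These population values rest on the tdT- CTL libraries, which stood apart. When the 10 CTL libraries were fitted alone, none of the 4 passed with edgeR (adjusted p = 0.16 for each), and with quality weights in limma-voom Ctsb, Grn and Man2b1 did not pass (adjusted p = 0.12, 0.16 and 0.17). Without the libraries of mice 174 and 179 in that group, the value was 0.59 for Ctsb (adjusted p = 0.0087) and 0.61 for Grn (adjusted p = 0.0087), while Ctsc at 0.39 and Man2b1 at 0.80 no longer passed (adjusted p = 0.081 for both), and 3 other members (Gaa, Galns and Ids) were called higher. Paired by mouse, the number called higher was 10 with the mouse as a random replicate block in limma-voom, 7 with such a block in limma-trend and 1 with the mouse as a fixed block in edgeR, and Galns, at 0 counts in 3 tdT- CTL libraries, was among them each time. The share of all genes called was not computed for these fits, so these counts cannot be set against all genes. Ctsb, the member of smallest p here, was lost with the random block in limma-voom (0.44, adjusted p = 0.92) and passed with the other 2 paired fits (adjusted p = 0.00029 in limma-trend and 0.0078 in edgeR). The dendritic cell and fibroblast markers given above differ between the same groups, and their part in these values was not tested.

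**Figure D4:**
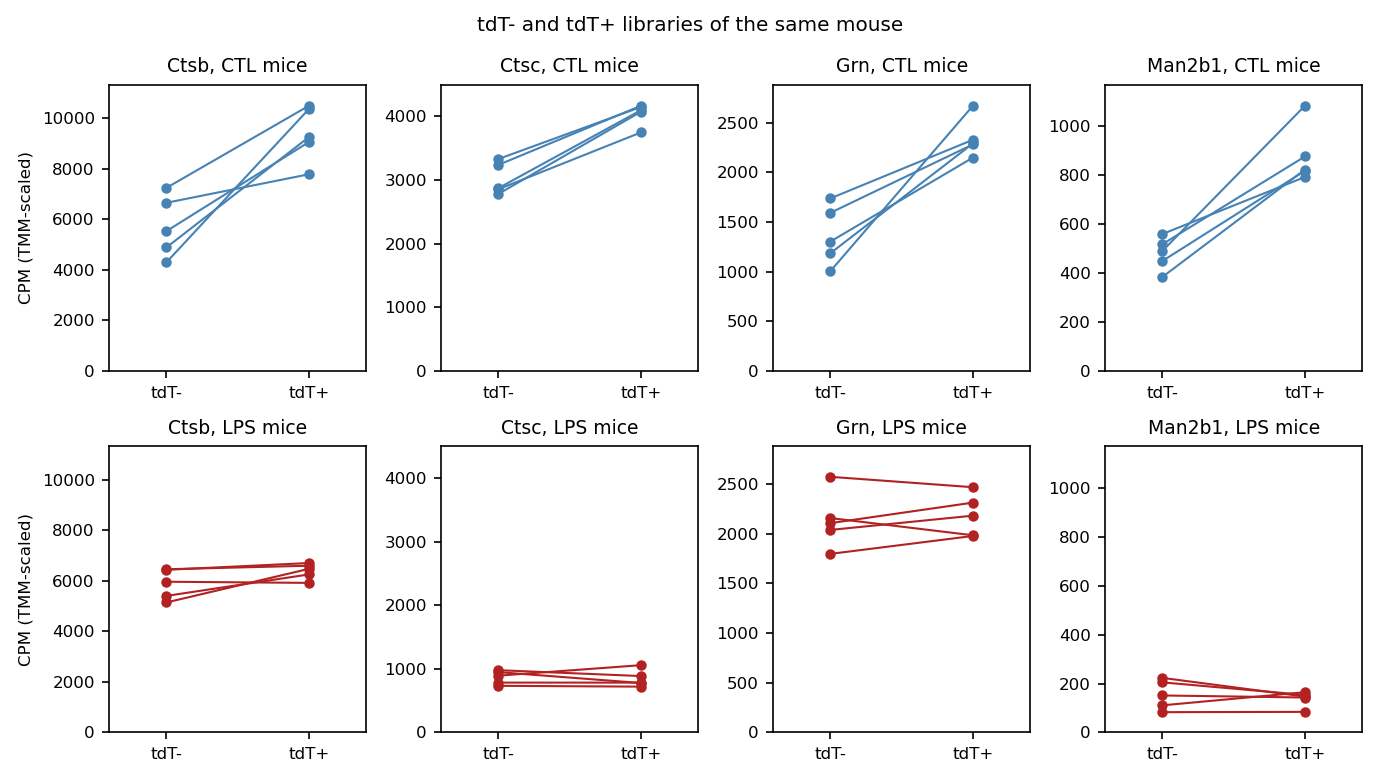
CPM (y axis, from 0) of Ctsb, Ctsc, Grn and Man2b1 in the tdT- and tdT+ library of each mouse, joined by a line, for 5 CTL mice (top, blue) and 5 LPS mice (bottom, red). All lines rise from tdT- to tdT+ in the CTL mice, and in the LPS mice the labels overlap for each of the 4 genes.

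In LPS mice no member was called between the labels in either direction, beside 0.0301% of all genes called lower in tdT+ dCAMs. At an unadjusted p under 0.05 edgeR gave 0 members, beside 899 of the 16632 genes tested. With other tools the number of members at this level reached 4, and with the fixed mouse block in edgeR it was 2 (Ctsh and Lyz2). For these other fits the share of all genes was not computed. By sign alone, 7 members were higher in the tdT+ library of all 5 LPS mice (Ctsl, Ctso, Lgmn, Lyz2, Gaa, Gla and Lamp2) and 2 were lower (Ctsh and Psap), beside 5.19% and 4.71% of all genes. The largest estimates in either direction were 0.49 for Ctsl (interval -0.11 to 1.09) and -0.30 for Ctsh (interval -0.63 to 0.02). For Ctsb the interval was -0.13 to 0.37 and for Grn -0.25 to 0.31.

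The difference of the LPS effects, tdT+ minus tdT-, was called for 0 members, beside 0.0902% of all genes in the positive and 1.17% in the negative direction. At an unadjusted p under 0.05 edgeR gave 4 of 42 members, all negative, beside 2181 of the 16632 genes tested in either direction. The share of the members was thus below that of all genes. The 4 were Grn at -0.75 ± 0.19 (adjusted p = 0.057) and Ctsb at -0.60 ± 0.17 (adjusted p = 0.097), with Man2b1 at -1.03 ± 0.34 (adjusted p = 0.17) and Ctsc at -0.46 ± 0.16 (adjusted p = 0.19). These 4 are the members that were higher in tdT+ dCAMs of CTL mice, and the contrasts share the CTL libraries. At that level DESeq2 gave 5 members, limma-voom with quality weights 12, and the fits paired by mouse 12 (fixed block, edgeR), 13 (random block, limma-trend) and 18 (random block, limma-voom). For these other fits the share of all genes was not computed. For Lyz2 the difference was 0.26 (adjusted p = 0.76) and for Ctsl 0.28 (adjusted p = 0.98), so that no difference between the labels was detectable in their LPS effects.

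Of 26 further lysosomal hydrolases, 6 were called lower and 3 higher in tdT- dCAMs (4.27% and 7.20% of all genes), and 7 lower and 0 higher in tdT+ dCAMs (2.52% and 3.37%), with medians of -0.44 and -0.81 beside 0.02 and 0.01 over all genes. Arsb, a sulfatase of dermatan sulfate, fell with log2 fold changes of -3.50 and -3.37, and the phospholipase Pla2g15 with -1.90 and -2.45. In CTL mice Ctse, an endosomal aspartic protease, was at the floor in all tdT- CTL libraries and at 1.07 to 9.74 CPM in tdT+ CTL.

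Calls among the proton pump genes were near the share of all genes given above. Of 17 subunits of the vacuolar ATPase, Atp6v0a1 was called lower in both labels (log2 fold change -1.82 ± 0.59 and -2.79 ± 0.61, adjusted p = 0.047 and 0.0053) and Tcirg1, another a subunit, was called higher in tdT+ dCAMs (1.27 ± 0.28, adjusted p = 0.0054). Of 14 sorting and transport genes, tdT- dCAMs had 3 called higher and 1 called lower (7.20% and 4.27% of all genes), and for tdT+ dCAMs 2 were higher and 0 lower (3.37% and 2.52%), with 0 called for the difference between the labels. Slc11a1, the metal transporter of phagosomes, rose by 2.21 ± 0.20 and 1.74 ± 0.19 (adjusted p = 1.2e-07 and 2.4e-06). Igf2r, the mannose-6-phosphate receptor that delivers hydrolases, was at the floor in all 10 CTL libraries and rose to 1.06 to 19.6 CPM in tdT- and 2.21 to 11.2 CPM in tdT+ LPS libraries. None of the 5 MiT/TFE factors and E-box binding partners examined (Mitf, Tfe3, Tfec, Usf1 and Usf2) was called, with Tfe3 at 0.03 ± 0.33 and -0.26 ± 0.33.

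Of 10 cathepsin inhibitors 6 could be tested. In tdT- dCAMs 2 were called higher and 2 lower (7.20% and 4.27% of all genes). In tdT+ dCAMs 1 was called higher and 2 lower (3.37% and 2.52% of all genes). Cystatin C (Cst3), the secreted inhibitor of cysteine cathepsins, fell with log2 fold changes of -1.94 and -1.85 (adjusted p = 3.9e-08 and 5.9e-08), from 3536 to 5806 CPM in CTL to 889 to 1450.4 CPM in LPS libraries. Cystatin B (Cstb), the intracellular inhibitor, rose by 1.91 ± 0.23 and 2.46 ± 0.24 (adjusted p = 1.0e-05 and 4.2e-07). Cystatin F (Cst7) had 0 counts in all tdT- CTL libraries and 19.2 to 47.3 CPM in tdT- LPS libraries, and Serpinb6a fell by 1.91 in tdT+ dCAMs (adjusted p = 0.011). The difference of the LPS effects was called negative for Cst7 (adjusted p = 0.032) and Ctse (adjusted p = 0.017), both at the floor in all tdT- CTL libraries.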

How the data were processed

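RNA of sorted tdT+ and tdT- dCAMs was measured in 20 libraries from 10 mice. Libraries were made with a PCR-based kit without molecular identifiers, so the floor of 3 counts covers counting error only. The authors deposited raw counts per gene, made, per the submitters' processing notes, with bcl2fastq 2.20, STAR 2.7.11a and featureCounts 2.0.6, and DESeq2 1.46.0 is also listed there. The build is not settled by the sources used here, so coordinates and exon lengths, taken from GRCm38 with GENCODE M21, only locate a gene. Strand use in counting is not given in the sources used here.

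Counts were fitted with edgeR 4.0.16 in R 4.3.3 (TMM scaling, quasi-likelihood, 1 mean per group, all 20 libraries jointly), after genes with a total count under 10 were removed. P-values were adjusted over all 16632 genes tested, and SEs were derived from the fold change and its F statistic. The 95% intervals use the t quantile of the fit and include a spread between mice that was estimated jointly over the 4 groups. The members varied more in tdT- CTL (median coefficient of variation 44.4%) than in the other groups (16.8% to 17.2%). SEs and intervals may thus be too narrow where tdT- CTL takes part and too wide elsewhere. The fit was tested on simulated data. Groups come from the labels. Libraries with the same mouse number were sorted from 1 dura. Deviations of such pairs from their group means correlated at r = -0.0046 to 0.046 in CTL and 0.23 to 0.45 in LPS mice. DESeq2 1.42.0, limma 3.58.1, other scalings and filters, replicate blocks, the letter of the title and leaving out each mouse were tried as alternatives. The members and gene lists were chosen with earlier results of these data known. Per-library values are given for the 3 members of smallest p per direction of each LPS comparison and for the most abundant uncalled member of each role, with Man2b1 added after its values were seen. Of the other lists at most 3 called genes per comparison are named, except Serpinb6a, Lyz1, Tfe3 and the genes with a differing LPS effect. Some genes of these lists are not reported here.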

Additional observations from a re-analysis of the deposited data

Results flagged for a closer look

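Of 168 combinations of member and group, 10 held a library whose gap to its nearest neighbour took up more of the group's range than Dixon's 95% limit for 5 values (0.71), and chance gives about 1 in 20. In tdT+ CTL 5 were found, of which 4 were in the library of mouse 174. There Ctsc was at 3750 CPM (others 4075 to 4169), Man2b1 at 1084 CPM (others 793 to 877), Npc2 at 816 CPM (others 582 to 626) and Laptm5 at 3109.8 CPM (others 2108 to 2334). Cd68 was at 1059 CPM in the tdT+ CTL library of mouse 178, against 1113 to 1125 CPM. In tdT- CTL, Galns was at 13.1 CPM in the library of mouse 179 (others 0 to 1.02) and Idua at 95.4 CPM in that of mouse 175 (others 0 to 23.3). The libraries of LPS mouse 61 were low for Man2b1 in tdT+ dCAMs, at 84.0 CPM (others 143 to 164), and in tdT- dCAMs for Psap, at 779 CPM (others 1207 to 1369.7), and Lipa, at 38.5 CPM (others 76.6 to 87.4). No cause of these values was tested.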

How the results depend on the processing

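The 39 member calls (by either threshold) were recomputed under the alternatives, which gave 940 values. Of these 830 kept direction and threshold, 110 kept the direction without passing the threshold and 0 changed sign. Ctsc, Ctsf, Ctsh, Hexa and Man2b1 were called in both labels under every alternative run for the LPS comparisons. Shares of all genes called were not computed under the alternatives. The number of members called stayed within 1.5 times the reported count, with these exceptions. For LPS in tdT+ dCAMs, limma-voom with quality weights called 4 higher. For tdT+ against tdT- in CTL mice, where 0 were called higher, DESeq2 and limma-voom with quality weights each gave 1, and the fits paired by mouse gave 10 (replicate block, random, limma-voom), 7 (random, limma-trend, chosen after seeing the data) and 1 (fixed, edgeR). Leaving out the tdT- CTL libraries of mice 174 and 179 together, also chosen after seeing the data, gave 3, and leaving out 1 mouse or library in turn gave 0 to 3 (1 without mouse 174 or 177, 2 without 178 or 179, 3 without 175). For the difference of LPS effects, where 0 were called negative, limma-voom with quality weights gave 1, the random block in limma-voom 2, leaving out both libraries 1, and leaving out 1 in turn 0 to 1 (Galns, without mouse 179). Leaving out each mouse gave 6 to 7 lower and 2 to 3 higher in tdT-, and 8 to 11 lower and 2 to 3 higher in tdT+ dCAMs. Fitted on the 10 libraries of the comparison alone, the LPS effect in tdT- dCAMs lost the calls of Galns and Lipa. In tdT+ dCAMs the same setting gained Galns, Idua, Manba and Tfeb. Lost most often were Lipa in tdT- (14 of 24 alternatives) and Cd63 in tdT+ dCAMs (13 of 24), then Ctsa and Scarb2 in tdT- dCAMs (10 of 24 each), Man2b1 between the labels in CTL mice (10 of 25) and Galns in tdT- dCAMs (9 of 24). The random block in limma-voom lost Lyz2 (adjusted p = 0.33 in tdT- and 0.14 in tdT+ dCAMs), whose voom weights ran from 586 to 1.82e+10, and the limma-trend block, which uses no such weights, kept it. The limma-voom block also lost Ctsl and Lipa in tdT- and Laptm5 and the smaller change of Ctsb in tdT+ dCAMs, and gained Ctso and Naglu in tdT- and Npc2 and Tfeb in tdT+ dCAMs. The cause was not tested. The block changed no call in LPS mice. The fixed block could be fitted for the contrasts within mice and their difference only. Of the members near the floor, Galns, Idua, Naglu, Ctso and Ctsk had libraries at 0 counts. Library totals were 6649046 to 9495177 counts in tdT- CTL and 6017650 to 12208203 in tdT+ CTL. In these groups 14 and 1 of 210 pairs of a member and a library were at the floor. Why they were at the floor was not tested.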
